A study of Homo sapiens with 19 samples.

Results

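KSUUT and KSSUT elements were 142 of the 3422 named DNA elements measured with QUASARR-seq in K-562 cells, a human leukaemia line. The assay is a pooled reporter assay that reads promoter and enhancer activity of the same element. They were chosen by name alone: KSUUT or KSSUT, 4 digits, and .fwd or .rev for the orientation, with no substitution in the name. The 142 elements were 130 KSUUT and 12 KSSUT elements of 71 loci in 8 deposited tables. Each locus had both orientations, though not always in the same table. The meaning of the letters is not given in the sources used here, and no element sequence or genomic position was available, so elements are described by name. A further 24 KSUUT or KSSUT names carried a substitution and were not counted.

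Each element sits between 2 barcodes, named paBC and eaBC, read here as the promoter and the enhancer read-out. RNA libraries of each barcode were compared with DNA libraries of the same barcode, with 2 replicates of each. Set 1 placed the elements beside the minimal promoter pMYC, and set 2 beside pMYC, pGAPDH and pAPOBEC3F in the same libraries. Libraries were electroporated at 20 µg of plasmid per electroporation, with 5 electroporations per technical replicate, and cells were harvested after 6 h. Every group therefore shared the line and the time point, and each pool of cells was split 4 to 1 between RNA and DNA libraries. The labels give 2 technical replicates per biological replicate. Whether replicates 1 and 2 were biological or technical is not given in the labels, so p-values measure only the spread between these libraries.

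A promoter is the stretch of DNA at which transcription starts, and an enhancer raises transcription from a promoter at a distance. Many regulatory elements do both, and divergent transcription is common at either kind. An episomal reporter of this type reads what a short sequence does outside its chromosomal setting, and it reads promoter activity separately in each orientation.

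Activity is given as the log2 ratio of RNA over DNA from the deposited values, with the value of 0.5 reads added to each. It was tested per table with limma at a Benjamini-Hochberg adjusted p under 0.05 over all elements of the table, and elements past that threshold are called higher or lower than DNA. The zero of this scale comes from the deposited scaling, whose basis is not stated. Each table was scaled on its own, and the 3 minimal promoters of set 2 share libraries, so levels from different tables are set side by side and not tested. Recovered reads over all elements came to between 200722 and 10167588 per table and RNA library, and to between 759171 and 10880944 per DNA library. They were fewest in the pAPOBEC3F enhancer read-out, where 11 of 137 KSUUT and KSSUT elements had under 10 reads in a library. The pMYC enhancer read-out of set 2 had 5 such elements of 135, and the other 6 tables had 0. Intervals from reads cover counting error only.

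In set 1 most KSUUT and KSSUT elements gave more RNA than DNA in both read-outs. In the promoter read-out 79 of 126 elements (62.7%) were called higher, against a background of 55.7% of all 1534 elements, and 15 were called lower, against 25.7%. Their median was 0.47, and that of all elements was 0.38. The enhancer read-out called 78 of 126 (61.9%) higher, against a background of 53.9%, and 2 were lower, against 11.2%. The median there was 0.25, and that of all elements 0.22. The few lower calls depended on single libraries. In the promoter read-out they numbered 6 with either DNA replicate left out, and 24 when RNA replicate 1 was. In the enhancer read-out they numbered 1 with either DNA replicate left out, 8 when RNA replicate 1 was and 10 when RNA replicate 2 was. They also depended on the zero: with each table centred on its median, the promoter split was 59 higher and 49 lower, against 46.2% and 44.5% of all elements. The enhancer split was then 46 and 37, against 44.0% and 36.7%.

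The highest element of set 1 in the promoter read-out was KSUUT0094.fwd. Its deposited values were 1162 and 1018 in RNA libraries, against 120 and 121 in DNA libraries. The log2 RNA/DNA was 3.28 and 3.07, or 3.18 ± 0.15 (SD, n = 2; adjusted p = 3.3e-09). RNA exceeded DNA in both replicates with no overlap. KSUUT0027.rev followed at 2.91 ± 0.09 (SD, n = 2), and KSSUT0002.fwd at 2.88 ± 0.03 (SD, n = 2). Within the range of all elements of that table, KSUUT0094.fwd stood at percentile 90.1, so higher elements existed outside the KSUUT and KSSUT names.

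The highest enhancer ratio of set 1 was that of KSUUT0027.fwd. Its deposited values were 4950 and 4833 in RNA libraries, against 847 and 874 in DNA libraries, a log2 ratio of 2.51 ± 0.06 (SD, n = 2; adjusted p = 1.1e-12). KSUUT0055.rev reached 2.28 ± 0.12 and KSUUT0094.rev 2.08 ± 0.11 (SD, n = 2). Loci KSUUT0027 and KSUUT0094 were thus among the 3 highest of both read-outs, each in opposite orientations. At KSUUT0094 the enhancer ratio of .fwd was 2.00, close to that of .rev.

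The KSSUT elements lay above the KSUUT elements in both read-outs of set 1. All 9 KSSUT elements measured there were called higher in the promoter read-out, with a median of 1.36, while 70 of 117 KSUUT elements (59.8%) were, with a median of 0.44. Again 9 of 9 KSSUT elements were called higher in the enhancer read-out, with a median of 0.95, beside 69 of 117 KSUUT elements (59.0%) with a median of 0.24. The 9 came from 5 loci, so orientations of 1 locus are not separate observations. The KSUAT elements (119, median 2.67) and KSSAT elements (128, median 3.18) of the same promoter table were higher than either, and the 131 KUUUT elements had a median of 0.79. These medians are given as descriptions and were not tested.

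KSSUT0002 was the strongest KSSUT locus of set 1. Its .fwd element had 1555 and 1479 in RNA libraries of the promoter read-out, against 208 and 204 in DNA libraries. In the enhancer read-out the RNA values of KSSUT0002.fwd were 630 and 577, against DNA values of 265 and 279, for a log2 ratio of 1.15 ± 0.14 (SD, n = 2). The RNA and DNA values did not overlap in either read-out. The lowest KSSUT element in the promoter read-out was KSSUT0008.rev at 0.39 ± 0.29 (SD, n = 2; adjusted p = 0.023), whose enhancer ratio was 0.91 ± 0.11 (SD, n = 2).

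With pMYC in set 2, 81 of 136 KSUUT and KSSUT elements (59.6%) were called higher in the promoter read-out, against a background of 51.6%, and 16 were lower, against 27.7%. The enhancer read-out called 61 of 135 (45.2%) higher, against a background of 39.4%, and 7 lower, against 7.45%. Those 7 lower calls became 0 when DNA replicate 1 was left out, 3 for DNA replicate 2 and 11 for RNA replicate 2. Centred on the median of all elements, the promoter split was 67 higher and 41 lower, against 42.5% and 40.3%. The enhancer split was 42 and 26, against 29.6% and 20.5%.

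With pAPOBEC3F, 82 of 138 elements (59.4%) were called higher in the promoter read-out, against a background of 50.5%, and 14 were lower, against 30.0%. Without RNA replicate 2 the lower calls numbered 25. In the enhancer read-out 43 of 137 (31.4%) were called higher, against a background of 28.9%, and 5 lower, against 7.67%. The 43 became 28 with either DNA replicate left out. The 5 lower calls became 2 when DNA replicate 1 was left out, 1 for DNA replicate 2, 12 for RNA replicate 1 and 17 for RNA replicate 2. Centring gave 71 higher and 38 lower in the promoter read-out, against 45.1% and 42.2%, and 36 and 13 in the enhancer read-out, against 25.4% and 12.3%.

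With pGAPDH more elements were called lower than higher in the promoter read-out. The counts were 48 higher of 138 (34.8%), against a background of 36.4%, and 64 lower (46.4%), against 46.9%, both near the background. The median was -0.02, beside -0.07 for all elements. Centred on the median, the split was 60 higher and 56 lower, against 41.9% and 41.2%. The enhancer read-out of pGAPDH called 36 higher, against a background of 23.4%, and 19 lower, against 19.3%. The 19 became 8 without RNA replicate 2. Centred, the enhancer split was 36 and 17, against 24.2% and 18.2%. The range was narrower than with the other minimal promoters: the promoter ratios with pGAPDH ran between -1.12 and 1.5, those with pMYC in set 2 between -0.93 and 3.50, and those with pAPOBEC3F between -1.02 and 4.35.

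In set 2 the KSSUT median exceeded the KSUUT median in all 6 tables. Of 11 KSSUT elements, 10 were called higher in the promoter read-out with pMYC (median 1.09, KSUUT 0.32) and 10 with pAPOBEC3F (median 1.32, KSUUT 0.33). With pGAPDH 6 of 10 were called higher and 4 lower (median 0.27, KSUUT -0.03), where 46.9% of all elements were called lower. The 4 lower elements were KSSUT0004.rev, KSSUT0007.fwd, KSSUT0007.rev and KSSUT0010.fwd, which were all called higher in the promoter read-outs with pMYC and pAPOBEC3F. The pMYC ratio of KSSUT0004.rev, 0.25, was near the median of all elements, 0.24. Over all 8 tables its higher calls numbered 4, and 2 after centring. KSSUT0007.fwd, KSSUT0007.rev and KSSUT0010.fwd each had as many higher calls after centring as before. The enhancer read-outs called 6 of 11 higher with pMYC, 2 of 10 with pGAPDH and 7 of 11 with pAPOBEC3F, and none lower. Of all elements, 39.4%, 23.4% and 28.9% were called higher there in the same order. In the promoter read-outs 51.6%, 36.4% and 50.5% of all elements were. With pGAPDH the enhancer medians were close, at 0.08 for KSSUT and 0.01 for KSUUT. With pAPOBEC3F the higher enhancer call of KSSUT0008.rev rested on 4 RNA reads and 1 DNA read, summed over replicates. The KSSUT elements came from 6 loci, so orientations of 1 locus are not separate observations.

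The highest elements of set 2 came from loci that set 1 did not hold. Set 2 had 16 elements absent from set 1, and 7 whole loci: KSSUT0005, KSUUT0003, KSUUT0008, KSUUT0021, KSUUT0025, KSUUT0029 and KSUUT0136. KSUUT0008.rev was the highest KSUUT or KSSUT element in 5 of the 6 tables of set 2 and second in the sixth. With pAPOBEC3F its promoter values were 6215 and 5954 in RNA libraries, against 290.1 and 308 in DNA libraries. The log2 ratio was 4.35 ± 0.10 (SD, n = 2; adjusted p = 2.2e-12), beside 3.50 ± 0.11 with pMYC and 1.5 ± 0.12 with pGAPDH (SD, n = 2). The enhancer ratios of KSUUT0008.rev were 2.90 ± 0.13 with pMYC, 1.40 ± 0.06 with pGAPDH and 2.94 ± 0.22 with pAPOBEC3F (SD, n = 2). The same element thus led in both read-outs with every minimal promoter of set 2, apart from the pAPOBEC3F enhancer read-out, which an element with few reads headed. KSUUT0008.fwd was called higher in all 6 tables too, with means between 1.15 and 2.95.

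KSUUT0025 and KSUUT0021 came next. KSUUT0025.rev had promoter ratios of 3.29 with pMYC, 1.05 with pGAPDH and 3.82 with pAPOBEC3F, and enhancer ratios of 2.17, 1.06 and 2.78 in the same order. Its replicates differed most in the pAPOBEC3F promoter read-out, at 3.29 and 4.36, from 98 and 160 RNA reads and 58 and 42 DNA reads. KSUUT0021.rev was measured with 2 of the minimal promoters, at 2.75 with pMYC and 4.22 with pAPOBEC3F in the promoter read-out and at 2.29 and 2.58 in the enhancer read-out. KSUUT0021.fwd with pGAPDH was not called in the promoter read-out, at 0.09 ± 0.03 (SD, n = 2; adjusted p = 0.20), and was called higher in the enhancer read-out, at 1.25 ± 0.14 (SD, n = 2; adjusted p = 1.5e-18).

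KSSUT0005, the KSSUT locus present in set 2 alone, was active in both orientations. KSSUT0005.fwd had promoter ratios of 2.32 with pMYC, 0.42 with pGAPDH and 2.83 with pAPOBEC3F, all called higher. Its enhancer ratios were 1.13, 0.02 and 1.33, of which the one with pGAPDH was not called. KSSUT0005.rev was called higher in all 6 tables, between 0.45 and 1.89.

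KSUUT0003 and KSUUT0029 were weaker. KSUUT0003.fwd ranged up to 1.5 in the pAPOBEC3F promoter read-out, and its enhancer ratio there, -0.21, rested on 5 and 4 RNA reads. KSUUT0029.rev had 1.08 with pMYC and 1.53 with pAPOBEC3F in the promoter read-out, and -0.01 with pGAPDH, where it was not called.

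Of the 142 elements, 119 were measured in all 8 tables, and 12 of these (10.1%) were called higher in every table, against 15.6% of all 1072 elements measured in all 8. The 12 were both orientations of KSUUT0019, KSUUT0035, KSUUT0055 and KSUUT0094, and KSUUT0027.fwd, KSUUT0059.rev, KSUUT0114.rev and KSUUT0116.fwd. Another 21 of the 119 were called higher in 0 tables, and the share of all elements so placed is not given here. KSUUT0055.fwd had the highest minimum of the 12, 0.54 in the pGAPDH enhancer read-out, with a maximum of 2.34. KSUUT0114.rev lay between 0.47 and 2.59. KSUUT0116.fwd had the lowest minimum, 0.07 ± 0.01 in the pGAPDH promoter read-out (SD, n = 2; adjusted p = 0.040).

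With 1 library left out at a time, in 32 fits per element, 6 of the 12 stayed called higher throughout. These 6 were KSUUT0019.fwd, KSUUT0027.fwd, KSUUT0055.fwd, KSUUT0055.rev, KSUUT0094.fwd and KSUUT0114.rev. KSUUT0116.fwd was called in 24 of the 32 fits and KSUUT0059.rev in 25. With all tables centred on their medians, 10 of the 12 were still called higher in every table and KSUUT0023.rev was as well, 11 elements (9.24%) against 14.3% of all elements. KSUUT0116.fwd was then called higher in 7 tables and KSUUT0059.rev in 5.

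No KSUUT or KSSUT element was called lower in all 8 tables, against 1.59% of all elements. KSUUT0131.rev came closest, with 7 lower calls, and was not called in the enhancer read-out of set 1, at -0.07 ± 0.17 (SD, n = 2). Its lowest ratio was -1.02 ± 0.05 (SD, n = 2; adjusted p = 9.7e-06) in the pAPOBEC3F promoter read-out, from 87 and 107 RNA reads and 1057 and 1155 DNA reads. KSUUT0108.rev followed with 6 lower calls, and both were called lower in all 8 tables after centring. These 2 were 1.68% of the elements measured in all 8, against 4.38% of all such elements.

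KSUUT0067.rev was the lowest element with pMYC in the promoter read-out of both sets. In set 1 its values were 512 and 474 in RNA libraries, against 744 and 779 in DNA libraries, a log2 ratio of -0.63 ± 0.12 (SD, n = 2; adjusted p = 2.9e-05). In set 2 its ratio was -0.93 ± 0.11 (SD, n = 2; adjusted p = 6.0e-07). RNA stayed below DNA in both replicates of both sets. Its enhancer ratios with pMYC were 0.06 ± 0.02 in set 1 and -0.13 ± 0.09 in set 2 (SD, n = 2), neither called.

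The remaining lowest elements of the promoter read-outs were KSUUT0131.rev (-0.60) and KSUUT0138.rev (-0.43) in set 1, and KSUUT0138.rev (-0.71) and KSUUT0100.rev (-0.66) with pMYC in set 2. With pGAPDH they were KSUUT0104.rev (-1.12), KSUUT0100.rev (-1.11) and KSUUT0108.rev (-0.96), and with pAPOBEC3F KSUUT0028.rev (-0.84) and KSUUT0028.fwd (-0.76), all called lower. Of the 12 lowest positions in the promoter tables, 11 were held by .rev elements, and several elements recurred between tables. Over all pairs too, more were called higher in .fwd than in .rev in every promoter table. The share of .rev among the lowest of all elements is not given here. In the enhancer read-outs the lowest were KSUUT0014.fwd in set 1 (-0.35), KSUUT0133.fwd with pMYC in set 2 (-0.71) and KSUUT0014.rev with pGAPDH (-0.45), all called lower. The lowest with pAPOBEC3F, KSUUT0028.fwd at -0.72, was not called (adjusted p = 0.072).

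Orientation was tested within each table on the difference of the log2 RNA/DNA, .fwd minus .rev, over all pairs without a substitution. This difference does not depend on the zero of the scale. In the promoter read-out of set 1, 37 of 62 KSUUT and KSSUT pairs were called higher in .fwd, against a background of 52.6% of 643 pairs, and 11 higher in .rev, against 20.4%. The 11 became 17 without RNA replicate 2. The median difference was 0.26, beside 0.25 for all pairs. With pMYC in set 2, 22 of 66 were higher in .fwd, against 39.9%, and 15 in .rev, against 22.7%, and the 15 became 9 without DNA replicate 1. With pGAPDH, 24 of 68 were higher in .fwd, against 39.7%, and 25 in .rev, against 32.3%. With pAPOBEC3F, 24 of 67 were higher in .fwd, against 35.6%, and 11 in .rev, against 21.6%. There the 24 became 14 without DNA replicate 2, and the 11 became 17 without RNA replicate 2.

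The enhancer read-out gave fewer orientation calls. In set 1, 3 of 62 pairs were higher in .fwd, against a background of 8.10%, and 15 in .rev, against 19.6%. The median difference was -0.05, beside -0.06 for all pairs, and the median size of the difference was 0.09, beside 0.33 in the promoter read-out. With pMYC in set 2 the calls were 4 in .fwd of 65, against 4.41%, and 7 in .rev, against 8.0%. With pGAPDH they were 1 in .fwd of 68, against 3.69%, and 10 in .rev, against 13.4%. With pAPOBEC3F they were 2 in .fwd of 66, against 2.18%, and 1 in .rev, against 3.02%. All 8 of these counts moved by over 1.5 times when a single library was left out. In set 1 the .fwd calls were 5 without RNA replicate 1 and 6 without RNA replicate 2, and the .rev calls 5 without DNA replicate 1 and 6 without DNA replicate 2. With pMYC the .fwd calls were 1 and 2 without DNA replicate 1 and 2, and 8 and 9 without RNA replicate 1 and 2. The .rev calls there were 4, 3, 12 and 11 in the same order of libraries. With pGAPDH the .fwd calls were 6 without DNA replicate 1 and 2 without DNA replicate 2, and the .rev calls 1 without either RNA replicate. With pAPOBEC3F the .fwd calls were 1 without either DNA replicate, 10 without RNA replicate 1 and 8 without RNA replicate 2. The .rev calls there were 0 without either DNA replicate, 12 without RNA replicate 1 and 14 without RNA replicate 2. Reads were fewer in the enhancer libraries, and their part in the smaller number of calls was not tested.

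The ratios of the 2 orientations of a locus were related in both read-outs. Pearson's r of .fwd with .rev over KSUUT and KSSUT pairs was 0.84 in the promoter and 0.85 in the enhancer read-out of set 1 (n = 62 pairs). In set 2 it lay between 0.67 and 0.83 in the promoter read-outs and between 0.74 and 0.76 in the enhancer read-outs. The 2 orientations share the locus, the libraries and the table, so r is a description.

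Of the 57 pairs measured in all 8 tables, 10 (17.5%) were called higher in .fwd in all 4 promoter tables, against 18.8% of all 468 such pairs, and 5 (8.77%) higher in .rev, against 10.0%. Both shares were near the background. The 10 were KSSUT0002, KSSUT0004, KSUUT0036, KSUUT0049, KSUUT0055, KSUUT0069, KSUUT0100, KSUUT0106, KSUUT0124 and KSUUT0142. The 5 were KSSUT0010, KSUUT0023, KSUUT0026, KSUUT0052 and KSUUT0098. With 1 library left out at a time, in 16 fits per pair, 4 of the 10 kept every call, KSSUT0002, KSSUT0004, KSUUT0049 and KSUUT0069. Of the 5, KSUUT0023, KSUUT0026 and KSUUT0052 did. Among the KSUUT and KSSUT pairs, only KSUUT0027 was called higher in .fwd in all 4 enhancer tables and only KSUUT0023 higher in .rev in all 4, against 0.641% and 1.92% of all pairs. KSUUT0027 kept its enhancer calls in all 16 fits. KSUUT0023 favoured .rev in every table, by 0.29 to 0.86 in the promoter and 0.16 to 0.68 in the enhancer read-outs. Its enhancer calls were lost in 5 of 16 fits. With pAPOBEC3F the call was lost without either DNA replicate, and with pGAPDH without DNA replicate 1 or either RNA replicate. In 35 of the 57 pairs (61.4%) no enhancer table gave an orientation call, against 55.1% of all pairs, and in 3 (5.26%) no promoter table did, against 4.49%.

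KSSUT0002 showed an orientation difference in the promoter read-out and no called difference in the enhancer read-out. Its .fwd minus .rev differences in promoter tables were 1.07 ± 0.03 in set 1 and 1.28 ± 0.12 with pMYC, 0.49 ± 0.10 with pGAPDH and 1.28 ± 0.07 with pAPOBEC3F in set 2 (SD, n = 2). In enhancer tables they were 0.02 ± 0.12, 0.03 ± 0.43, 0.03 ± 0.07 and -0.13 ± 0.27 in the same order. KSUUT0052 differed the other way, by -1.10, -0.77, -0.44 and -1.24 in the promoter tables in that order, with enhancer differences between -0.41 and 0.06 that were not called.

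KSUUT0051 had the largest orientation difference of KSUUT and KSSUT pairs in 3 of the 4 promoter tables. In set 1 the .fwd element had promoter values of 600.0 and 597 in RNA libraries, against 206 and 202 in DNA libraries. The .rev element, KSUUT0051.rev, had 86.7 and 84.3 in RNA libraries, against 92.6 and 93.4 in DNA libraries. RNA exceeded DNA for KSUUT0051.fwd and not for KSUUT0051.rev. The .fwd minus .rev difference was 1.67 ± 0.05 in set 1, 2.38 ± 0.10 with pMYC in set 2 and 2.08 ± 0.32 with pAPOBEC3F (SD, n = 2), all called. With pGAPDH it was 0.17 ± 0.10 (SD, n = 2; adjusted p = 0.25). KSUUT0051.fwd had the widest range of promoter percentile rank over the 3 minimal promoters, at 86.6 with pMYC, 29.6 with pGAPDH and 76.2 with pAPOBEC3F.

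At KSUUT0027 the favoured orientation differed between read-outs. In set 1 KSUUT0027.fwd had promoter ratios of 2.31 and 2.14, and KSUUT0027.rev had 2.98 and 2.85. In the enhancer read-out KSUUT0027.fwd had 2.55 and 2.47, and KSUUT0027.rev had 1.19 and 1.12. The orientations did not overlap in either read-out: .rev was higher in the promoter read-out and .fwd in the enhancer read-out. The difference .fwd minus .rev was -0.69 ± 0.03 in the promoter read-out (SD, n = 2; adjusted p = 9.6e-06) and 1.35 ± 0.01 in the enhancer read-out (SD, n = 2; adjusted p = 1.3e-06).

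The same pattern was seen at KSUUT0027 in set 2 with 2 minimal promoters. With pMYC the promoter difference was -0.26 ± 0.03 (SD, n = 2; adjusted p = 0.0073), not called with 1 of 4 libraries left out, and the enhancer difference was 1.47 ± 0.17. With pAPOBEC3F the promoter difference was -0.72 ± 0.13 and the enhancer difference 1.98 ± 0.40 (SD, n = 2). With pGAPDH the promoter difference, 0.10 ± 0.06, was not called, and the enhancer difference was 0.89 ± 0.22. The .rev element gave enhancer ratios of 0.05 with pGAPDH and 0.36 with pAPOBEC3F, neither called, while KSUUT0027.fwd was called higher in all 8 tables. The difference between read-outs was not tested itself.

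KSUUT0055 crossed in the other direction in set 1. Its .fwd minus .rev difference was 0.43 in the promoter read-out and -0.59 ± 0.10 in the enhancer read-out (SD, n = 2; adjusted p = 0.00032). In set 2 it favoured .fwd in all 3 promoter tables, by 0.45, 0.33 and 0.76 with pMYC, pGAPDH and pAPOBEC3F. The call with pMYC (adjusted p = 0.026) was lost without either DNA replicate. The enhancer differences there were -0.40, -0.05 and -0.70, of which none was called.

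Promoter and enhancer ratios of the same element were related across KSUUT and KSSUT elements. Pearson's r was 0.81 in set 1 (n = 126), 0.83 with pMYC in set 2 (n = 135), 0.66 with pGAPDH (n = 138) and 0.70 with pAPOBEC3F (n = 137). Both barcodes of an element sit on the same plasmids, so r is a description. Both read-outs of set 1 called 63 elements higher, 79.7% of those higher in the promoter and 80.8% of those higher in the enhancer read-out. With pAPOBEC3F the 38 shared elements were 46.9% of the promoter calls and 88.4% of the enhancer calls. The overlap over all elements is not given here, so these shares only describe the KSUUT and KSSUT elements. The median size of the difference in percentile rank between read-outs was 9.29 in set 1, 8.88 with pMYC, 14.0 with pGAPDH and 8.85 with pAPOBEC3F in set 2.

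KSUUT0136 ranked much higher in the enhancer than in the promoter read-out with every minimal promoter of set 2. With pGAPDH, KSUUT0136.fwd had promoter values of 134 and 146 in RNA libraries, against 271 and 266 in DNA libraries, a log2 ratio of -0.94 ± 0.11 (SD, n = 2). Its enhancer values were 296 and 305 in RNA libraries, against 244 and 249 in DNA libraries, a log2 ratio of 0.28 ± 0.01 (SD, n = 2; adjusted p = 0.00091). RNA lay below DNA in the promoter read-out and above it in the enhancer read-out. Its percentile rank was 7.2 in the promoter and 83.5 in the enhancer read-out, and that of KSUUT0136.rev 20.7 and 95.2. KSUUT0136.rev had promoter ratios of 0.79 with pMYC, -0.54 with pGAPDH and 0.83 with pAPOBEC3F. Its enhancer ratios were 1.90, 0.64 and 1.86 in the same order, and all 6 were called.

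KSUUT0098.fwd ranked the other way with pMYC and pAPOBEC3F in set 2. With pMYC its promoter ratio was 0.59 ± 0.08 (SD, n = 2; percentile 63.0) and its enhancer ratio -0.39 ± 0.42 (SD, n = 2; percentile 7.5, not called). With pAPOBEC3F these were 0.99 ± 0.03 and -0.37 ± 0.19 (SD, n = 2; percentiles 65.8 and 14.1). The lower call of the enhancer read-out with pAPOBEC3F (adjusted p = 0.021) was lost without either DNA replicate, with an adjusted p of up to 0.39. With pGAPDH both were called lower, at -0.78 and -0.39. With pMYC in set 1, KSUUT0098.fwd stood at percentile 63.1 in the promoter and 51.7 in the enhancer read-out.

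In set 1 the shifts of rank were smaller. KSUUT0077.fwd stood 30.8 percentile points higher in the promoter read-out, KSUUT0126.fwd 27.8 and KSUUT0036.fwd 25.7. KSUUT0067.rev stood at percentile 7.9 in the promoter and 37.7 in the enhancer read-out, KSUUT0028.rev at 15.2 and 44.7, and KSUUT0100.rev at 33.5 and 60.8. With pMYC in set 2, KSUUT0108.fwd stood at 23.2 in the promoter and 79.7 in the enhancer read-out, and KSUUT0032.rev at 30.3 and 82.3. Their enhancer percentiles in set 1 were 37.9 and 53.0. The enhancer value of KSUUT0032.rev, 0.90 ± 0.43 (SD, n = 2; adjusted p = 0.13), rested on 7 and 11 RNA reads and was not called.

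Further shifts with pMYC in set 2 were those of KSUUT0133.fwd, at percentile 48.3 in the promoter and 2.0 in the enhancer read-out, and KSUUT0011.fwd, at 55.1 and 19.5. Their enhancer percentiles in set 1 were 43.4 and 37.1. With pGAPDH, KSUUT0051.rev stood at 20.3 and 79.4, while KSUUT0142.fwd stood at 46.4 and 8.9, KSUUT0040.fwd at 57.3 and 22.4 and KSUUT0014.fwd at 64.9 and 37.1. With pAPOBEC3F, KSUUT0100.rev stood at 24.4 and 72.5, KSUUT0003.fwd at 72.7 and 23.4 and KSUUT0030.fwd at 58.6 and 12.5. The enhancer values of KSUUT0100.rev and KSUUT0003.fwd in that table rested on at most 11 RNA reads per library, and neither was called.

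Across the 3 minimal promoters of set 2, 38 of 131 elements measured in all 3 (29.0%) were called higher in every promoter table, against 30.0% of all 2253 elements, and 11 (8.4%) were called lower in every one, against 21.2%. The enhancer tables called 22 of 130 (16.9%) higher throughout, against 17.8%, and 1 lower, against 1.96%. Centred, the promoter counts were 39 higher, against 29.4%, and 19 lower, against 25.5%. In the promoter read-out 20 elements (15.3%) were higher with pMYC and lower with pGAPDH, against 10.1% of all elements, and 0 the other way, against 0.533%. For pAPOBEC3F and pGAPDH these counts were 25 (19.1%), against 12.2%, and 1, against 1.95%. The median of all elements was 0.24 with pMYC, 0.23 with pAPOBEC3F and -0.07 with pGAPDH. Whether these medians differ through the zero of each table or through activity was not tested. With each table centred, the counts became 11 (8.4%) and 6 (4.58%) for pMYC and pGAPDH, against 4.97% and 5.06%. For pAPOBEC3F and pGAPDH they became 17 (13.0%) and 8 (6.11%), against 7.86% and 8.83%. No KSUUT or KSSUT element was called in opposite directions with pMYC and pAPOBEC3F in the promoter or the enhancer read-out. The share of all elements so called is not given here. The median range of percentile rank over the 3 minimal promoters was 15.7 in the promoter and 19.8 in the enhancer read-out.

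The widest ranges in the enhancer read-out were those of KSUUT0077.rev and KSUUT0108.fwd. KSUUT0077.rev stood at percentile 12.7 with pMYC, 80.5 with pGAPDH and 45.9 with pAPOBEC3F, and its ratio was called with pGAPDH alone, at 0.23 (adjusted p = 0.027). KSUUT0108.fwd stood at 79.7 with pMYC, 11.9 with pGAPDH and 38.4 with pAPOBEC3F. In the pMYC enhancer read-out of set 1, KSUUT0077.rev stood at 44.1 and KSUUT0108.fwd at 37.9, so set 1 did not repeat their pMYC ranks. After KSUUT0051.fwd the widest promoter ranges were those of KSUUT0142.rev, at 67.4, 15.6 and 70.3 in that order, and KSUUT0098.fwd, at 63.0, 11.4 and 65.8.

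Sets 1 and 2 measured pMYC in separate libraries. Over 121 elements in both, Pearson's r of the promoter ratios was 0.94, and over 120 elements that of the enhancer ratios was 0.81. In the promoter read-out 64 elements were called higher in both sets, 84.2% of the calls in set 1 and 94.1% of those in set 2. By the enhancer read-outs 45 were, 61.6% and 93.8% of the calls. No element was called in opposite directions by the promoter read-outs, and 2 were by the enhancer read-outs. These were KSUUT0014.fwd, at -0.35 in set 1 and 0.41 in set 2, and KSUUT0096.rev, at 0.15 and -0.30. The call of KSUUT0014.fwd was lost without either DNA replicate in set 1, and in 3 of 4 fits with 1 library left out in set 2. That of KSUUT0096.rev was lost in 3 of 4 such fits in set 1 and in 2 of 4 in set 2. After centring, neither was called higher in either set. Of 59 pairs tested for promoter orientation in both sets, 26 were called in both, all in the same direction. The enhancer read-outs called 6 of 58 pairs in both sets, all in the same direction too. Shared and opposite calls between sets over all elements or all pairs are not given here. The counts therefore only describe the KSUUT and KSSUT names.

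Several elements were missing from part of the tables or rested on few reads. Of the 142 elements, 23 were not measured in all 8 tables. Beside the 14 elements of the 7 loci of set 2, these were KSSUT0008.fwd, KSSUT0008.rev, KSUUT0007.fwd, KSUUT0014.fwd, KSUUT0018.rev, KSUUT0040.fwd, KSUUT0051.fwd, KSUUT0071.fwd and KSUUT0071.rev. KSSUT0008.rev headed the pAPOBEC3F enhancer read-out with 2 and 2 RNA reads, against 1 and 0 DNA reads. The log2 ratio of its summed reads was 4.25, with an exact 95% binomial interval between 0.92 and 9.88, and its call was lost without any 1 of 3 libraries. In the promoter read-out with pAPOBEC3F it was not called, at 0.38 ± 0.27 (SD, n = 2). KSUUT0124.fwd had 0 and 0 RNA reads, against 3 and 1 DNA reads, in the pAPOBEC3F enhancer read-out, and no ratio is given.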

How the data were processed

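RNA and DNA barcode libraries of QUASARR-seq from K-562 cells were compared, 16 libraries with 2 replicates per group. A further 3 index libraries hold no activity values. Tools named in the submitters' processing notes are fastp, edgeR and limma, and the build is hg38. Aligner, barcode matching and scaling are not given in the sources used here. The deposited signal values per element are, in each column, whole multiples of 1 step for 100% of values (tolerance 0.02), so the step was taken as 1 read. Deposited log2 fold changes and p-values, from limma per the file headers, served as an alternative. The score columns deposited by the authors, a moderated t and a log odds, were not used.

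Each table was fitted whole with limma 3.58.1 (R 4.3.3), eBayes with trend, on log2 of the value plus 0.5 reads, RNA against DNA, two-sided, with Benjamini-Hochberg adjustment and a threshold of 0.05. Orientation was fitted likewise on .fwd minus .rev over all unsubstituted pairs. Percentile ranks are within a table. Named elements are the 3 highest and 3 lowest per table and the 3 largest called orientation differences. They also include elements called alike in all 8 tables or opposite in 2, elements missing from tables, and the widest shifts of rank between read-outs and minimal promoters. Other elements were named after their values were seen. The members, lists and rules were chosen with earlier results of these data known. The fits were tested on simulated data. Alternatives were a pseudocount of 2 reads, at least 10 DNA reads, an adjusted p under 0.01, a replicate block, centring, edgeR 4.0.16 on recovered reads, the authors' table, and each library left out.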

Additional observations from a re-analysis of the deposited data

Results flagged for a closer look

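A difference between groups is listed here where calls under the same contrast went opposite ways, and none of these differences was tested itself. The share of all elements or pairs called in opposite ways between read-outs is not given here. Between read-outs of set 1, 4 elements were called lower in the promoter and higher in the enhancer read-out. KSUUT0004.rev was at -0.25 in the promoter and 0.20 in the enhancer read-out, KSUUT0026.fwd at -0.19 and 0.10, KSUUT0096.rev at -0.24 and 0.15, and KSUUT0106.rev at -0.36 and 0.14. Each of the 4 lost 1 of its calls or both with a single library left out. Without either DNA replicate the promoter calls of KSUUT0004.rev, KSUUT0026.fwd and KSUUT0096.rev were lost, as were the enhancer calls of KSUUT0026.fwd and KSUUT0096.rev. The enhancer call of KSUUT0096.rev was also lost without RNA replicate 1, and that of KSUUT0106.rev without DNA replicate 2. Centred on the median of all elements, none of these 4 was called higher in the enhancer read-out. With pGAPDH, KSSUT0010.fwd was at -0.37 in the promoter and 0.21 in the enhancer read-out, KSUUT0003.rev at -0.29 and 0.34, KSUUT0136.fwd at -0.94 and 0.28, and KSUUT0136.rev at -0.54 and 0.64. These 4 kept both calls after centring, and with 1 library left out only the enhancer call of KSUUT0003.rev was lost, without RNA replicate 1. With pAPOBEC3F, KSUUT0098.fwd was at 0.99 in the promoter and -0.37 in the enhancer read-out, and the enhancer call was lost without either DNA replicate. After centring, the read-outs called 8 elements of set 1 in opposite directions, against 4 before. With pMYC in set 2 the counts were 3 after centring and 0 before, with pGAPDH 4 and 4, and with pAPOBEC3F 4 and 1.

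The .fwd minus .rev difference of KSUUT0027 was -0.69 in the promoter and 1.35 in the enhancer read-out of set 1. In set 2 it was -0.26 and 1.47 with pMYC, and -0.72 and 1.98 with pAPOBEC3F. Of these 6 calls, that of the promoter read-out with pMYC was lost without DNA replicate 2. In set 1 that of KSUUT0043 was 0.57 in the promoter and -0.15 in the enhancer read-out. KSUUT0053 had 0.53 and -0.22, KSUUT0055 had 0.43 and -0.59, and KSUUT0077 had 0.18 and -0.42. Without either DNA replicate the enhancer calls of KSUUT0043 and KSUUT0053 and the promoter call of KSUUT0077 were lost, while both calls of KSUUT0055 were kept with any 1 library left out.

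Between minimal promoters, 20 elements (15.3%) were called higher with pMYC and lower with pGAPDH in the promoter read-out of set 2, against 10.1% of all elements. In the enhancer read-out 2 (1.54%) were, against 1.47%. With pAPOBEC3F in place of pMYC the counts were 25 (19.1%), against 12.2%, and 1 (0.769%), against 0.668%. Both enhancer shares were near the background. In the promoter read-out 1 further element (0.763%) was lower with pAPOBEC3F and higher with pGAPDH, against 1.95%. Centred, the promoter counts were 11 with pMYC, against 4.97%, and 17 with pAPOBEC3F, against 7.86%. The other way they were 6 and 8, against 5.06% and 8.83%. The centred enhancer counts were 0 and 0, against 0.579% for each. The other way they were 1 and 0, against 0.401% and 0.0891%. Orientation calls in the promoter read-out were opposite with pGAPDH for 7 loci. The share of all pairs with such opposite calls is not given here. The .fwd minus .rev difference of KSUUT0005 was 0.37 with pMYC, -0.13 with pGAPDH and 0.54 with pAPOBEC3F. That of KSUUT0019 was -0.33, 0.27 and -0.65 in the same order, and that of KSUUT0094 was 1.02, -0.25 and 1.01. For 4 loci the opposite calls were those with pGAPDH and pAPOBEC3F: KSUUT0030 at -0.12 and 0.57, KSUUT0045 at 0.37 and -0.44, KSUUT0085 at -0.44 and 0.33, and KSUUT0126 at -0.18 and 0.37. KSUUT0085 and KSUUT0094 kept these calls with any 1 library left out. The other 5 lost some. The calls with pMYC of KSUUT0005 and KSUUT0019 were lost without DNA replicate 1, and the call of KSUUT0005 with pGAPDH without DNA replicate 1 or RNA replicate 2. The call of KSUUT0030 with pGAPDH and that of KSUUT0126 with pAPOBEC3F were lost without either DNA replicate. With pAPOBEC3F the call of KSUUT0030 was lost without DNA replicate 2 and that of KSUUT0045 without DNA replicate 1.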

How the results depend on the processing

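With edgeR on recovered reads and with the authors' deposited table, all 16 counts of called elements stayed within 1.5 times the reported ones. Centring each table on its median moved the lower calls to 49 (set 1 promoter), 37 (set 1 enhancer), 41 (pMYC promoter of set 2), 26 (pMYC enhancer of set 2), 38 (pAPOBEC3F promoter) and 13 (pAPOBEC3F enhancer), and the higher calls of the set 1 enhancer read-out to 46. Among elements named for extremes, rank shifts or like calls in all tables, centring reversed some signs. In set 1 these were KSUUT0077.fwd in the promoter read-out (-0.37), and KSUUT0036.fwd (-0.17) and KSUUT0067.rev (-0.16) in the enhancer read-out. In set 2 they were KSUUT0059.rev with pMYC (-0.081) and KSUUT0136.fwd with pAPOBEC3F (-0.18), both in the promoter read-out. Elements named only for opposite calls were not covered, and some of them changed sign too. In the set 1 enhancer read-out KSUUT0026.fwd went from 0.10, called higher, to -0.12, called lower. KSUUT0004.rev went there from 0.20, called higher, to -0.02, not called. At an adjusted p under 0.01 the lower calls were 1 in the set 1 enhancer read-out, and 3 with pMYC, 12 with pGAPDH and 1 with pAPOBEC3F in the enhancer read-outs of set 2. Pairs higher in .rev were then 7 (set 1 enhancer), 9 (pMYC promoter of set 2), 4 (pGAPDH enhancer) and 0 (pAPOBEC3F enhancer), and 1 pair was higher in .fwd in the pAPOBEC3F enhancer read-out. In that read-out 1 pair was higher in .fwd with at least 10 DNA reads, and 3 in .rev with a pseudocount of 2 reads.

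Replicate numbers were not treated as pairs: the deviations of same-numbered RNA and DNA libraries correlated between -0.08 and 0.33 over all elements. A replicate block gave 2 pairs higher in .fwd with pGAPDH and 1 with pAPOBEC3F in the enhancer read-outs, and moved no other count by over 1.5 times. Leaving out 1 library gave these ranges. Lower calls ran between 6 and 24 (set 1 promoter), 1 and 10 (set 1 enhancer), 0 and 11 (pMYC enhancer of set 2), 8 and 21 (pGAPDH enhancer), 11 and 25 (pAPOBEC3F promoter), and 1 and 17 (pAPOBEC3F enhancer). Higher calls ran between 28 and 55 in the pAPOBEC3F enhancer read-out. Pairs higher in .fwd ran between 2 and 6 (set 1 enhancer), 1 and 9 (pMYC enhancer), 1 and 6 (pGAPDH enhancer), 14 and 33 (pAPOBEC3F promoter), and 1 and 10 (pAPOBEC3F enhancer). Pairs higher in .rev ran between 9 and 17 (set 1 promoter), 5 and 19 (set 1 enhancer), 9 and 16 (pMYC promoter of set 2), 3 and 12 (pMYC enhancer), 1 and 11 (pGAPDH enhancer), 8 and 17 (pAPOBEC3F promoter), and 0 and 14 (pAPOBEC3F enhancer). Of the values of single elements and pairs, 54 of those with a library left out lost their call and 20 gained one, while 770 did neither. Those values covered only elements and pairs named for extremes, orientation differences, rank shifts or calls in all 8 tables. Elements named only for opposite calls or missing tables were left out of them. The cause of the changes in calls was not tested.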
